A study of Mus musculus with 76 samples.

Results

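Whole CT26 tumors injected with catalase bound to a carrier, meant to act mainly outside cells, were compared with CT26 tumors injected with the carrier alone, by RNA sequencing. The members were chosen by their labels: all CT26 tumors given CAT-ABP + alum (6 tumors) and all CT26 tumors given alum (5 tumors). They make up 11 of the 38 tumors of the series and 22 of its 76 libraries, with 2 technical libraries per tumor. CAT-ABP is catalase, the enzyme that breaks down hydrogen peroxide, joined to a peptide that binds alum, the aluminum hydroxide carrier. Both groups were Balb/c mice that received 1000000 wild-type CT26 cells, a mouse colon carcinoma line, under the skin of the flank on day 0. On day 6 the tumors were injected with 20 ug of CAT-ABP and 100 ug of alum, or with 100 ug of alum without CAT-ABP, and they were harvested on day 8, as the labels have it, while the publication places both steps later. The labels give no age, no sex and no hour of harvest (the methods of the study name female mice and an age range for all experiments), and there was no untreated group. RNA came from whole tumors, so tumor cells, immune cells, vessels and nearby host tissue were measured together.

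The CT26 label was checked against 14 markers of colon epithelium. *Krt20*, a keratin of intestinal epithelium, averaged 83 CPM (counts per 1000000, scaled between tumors) in CT26 tumors and 1.27 in 4T1 tumors, a mammary carcinoma of the same series. The other epithelial markers were low or absent in CT26. *Epcam*, an adhesion protein of epithelia, averaged 2.05 CPM against 384 in 4T1, and *Cdh1*, which encodes E-cadherin, averaged 3.92 against 122. The claudin gene *Cldn7* and the intestinal transcription factor *Cdx1* had a mean of 0 CPM in CT26. Only 4 of the 14 markers had enough counts to be tested.

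Tumors given CAT-ABP + alum held between 4135199 and 9077549 counts (median 5977654.5), and alum tumors held 5002683, 1972842, 7308877, 4278298 and 5665117 counts in replicates 1 to 5. Alum replicate 2 was the shallowest tumor, and the groups otherwise overlapped in depth. The mean difference in log2 depth was 0.41 (two-sided exact permutation test, p = 0.288). Across 12830 genes, the 2 technical libraries of a tumor had Pearson correlations between 0.925 and 0.96 in log2 CPM; genes are not independent replicates.

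The circadian clock is a loop in which the transcription factors Bmal1 (gene *Arntl*) and Clock switch on their own repressors, so Bmal1 and its targets peak at opposite phases of the day. Interferons, released by activated lymphocytes and other cells, induce antiviral genes, guanylate-binding proteins and antigen presentation. Low oxygen stabilizes HIF factors, which induce glycolysis and related genes, and tumors often show all of these programs side by side.

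No gene passed the test of CAT-ABP + alum against alum. The count of genes at an adjusted p up to 0.05 was 0 of 12830 (0% of the genes tested) by edgeR (quasi-likelihood test, Benjamini-Hochberg adjustment). The looser limit of an unadjusted p under 0.05 held 311 genes (2.42%), of which 196 were lower with CAT-ABP + alum (1.53%) and 115 were higher (0.896%). DESeq2 called 1 gene, *Npl*, and placed 374 within the looser limit. By the same edgeR calculation (quasi-likelihood, Benjamini-Hochberg) the smallest adjusted p was 0.0664, for *Npl*, and every other gene had an adjusted p of 0.9997 or more in that test. The median log2 fold change over all genes was -0.0038, with 50.7% of genes below 0 and 49.3% above. Leaving out 1 tumor at a time, the lower genes at that limit numbered 126 (without treated replicate 5) to 510 (without alum replicate 5), and the higher ones 87 (without treated replicate 1) to 279 (without alum replicate 5). In the following, lower and higher describe values, not calls.

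Apart from *Npl*, clock genes stood at the head of the ranking by p. Stress and matrix genes reached its first places singly, with *Ddit3*, a stress-response factor, at rank 10 and *Lum*, a matrix gene, at rank 15. The clock genes *Tef*, *Arntl*, *Dbp* and *Bhlhe41* held ranks 2 to 5, and the interferon gene *Oasl2* held rank 6. The first MHC class I gene was *Tap2*, a peptide pump subunit, at rank 29, and the first gene of the hypoxia list was *Car9*, a carbonic anhydrase, at rank 39. The 24 gene lists hold 555 of the tested genes (4.33%). They took 27 of the 100 lower genes with the smallest p and 12 of the 100 higher ones. The lists were chosen with earlier results of these data known, so these shares are a description and not independent support. The same holds for the list values that follow. Among the 100 lower genes, 7 were in the type I interferon list, 5 in the list of clock repressors, 5 in the hypoxia list outside glycolysis, 3 in the MHC class I list, 2 in the list of interferon-gamma GTPases and 2 in the glycolysis list. The gene list that the study drew from the same tumors includes *Car9*, *Aldoa* and *Pgk1*, which its text names, so their values here are not independent of that list. Other genes named here may be in that list as well.

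**Figure D1:**
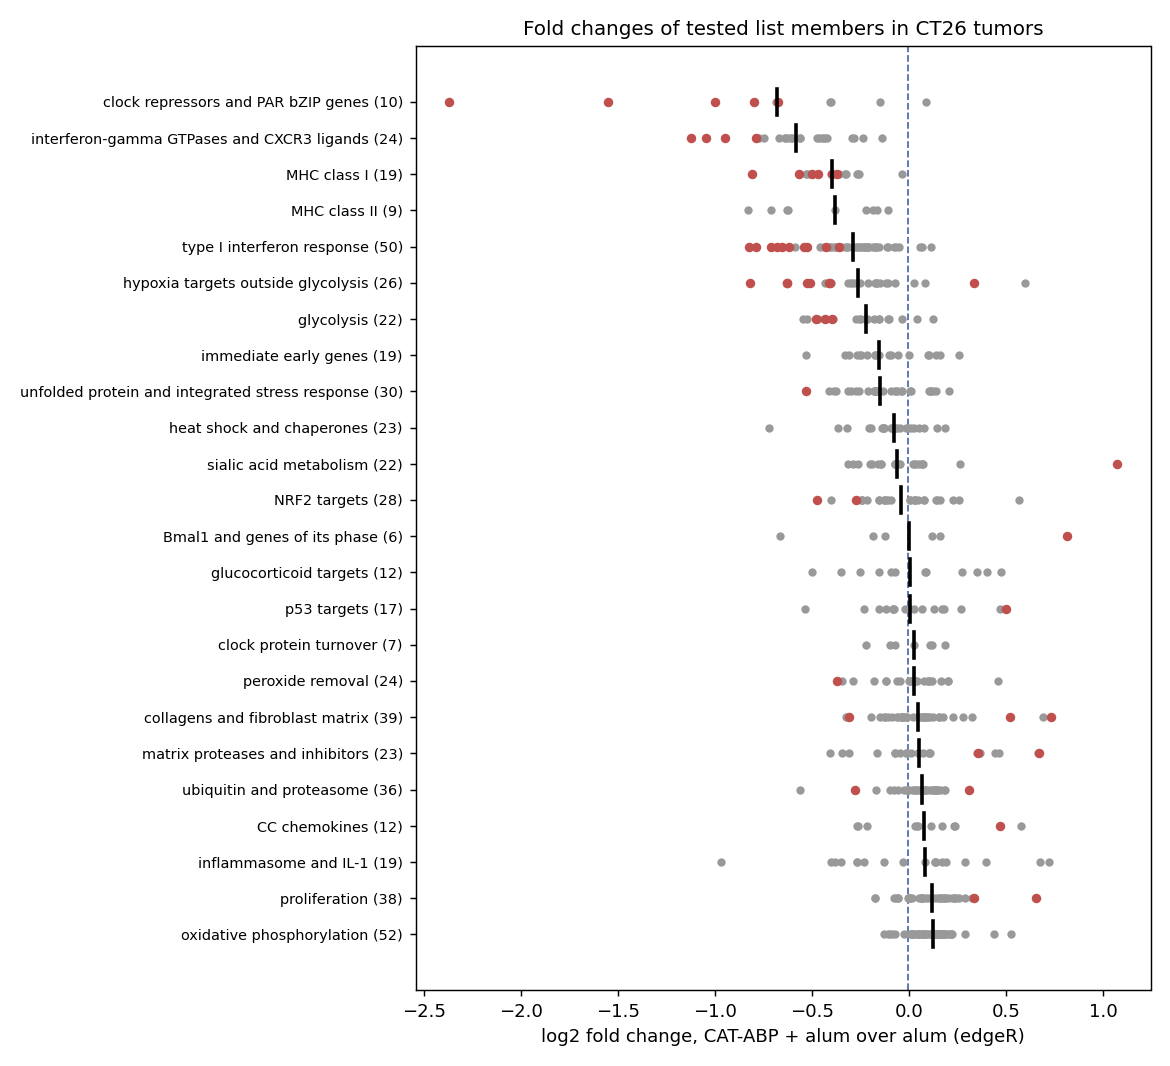
Log2 fold change (horizontal axis, CAT-ABP + alum over alum, from edgeR) of each tested member of the 24 gene lists, with the number of tested members in brackets. Points are genes, red at an unadjusted p under 0.05, black bars are list medians and the dashed line is the median of all genes, -0.0038; the clock repressor list has the lowest median, -0.68, and oxidative phosphorylation the highest, 0.12.

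Clock output genes and clock repressors were lower with CAT-ABP + alum, and *Arntl* was higher. *Tef* (ENSMUSG00000022389), a PAR bZIP transcription factor driven by the clock, had a lowest value of 6.22, a median of 9.74 and a highest value of 11.3 CPM over the 6 tumors given CAT-ABP + alum. The alum tumors had 22.1, 17.3, 24.9, 15.6 and 11.5 CPM. All 6 treated tumors were below all 5 alum tumors, with alum replicate 5 close to the treated range, and the log2 fold change was -0.997 (SE, standard error, 0.21). *Dbp* (ENSMUSG00000059824), the related factor whose rhythm is among the deepest in mouse tissues, had 0, 1.17 and 3.06 CPM (lowest, median and highest) with CAT-ABP + alum. In the alum tumors *Dbp* had 7.72, 9.75, 6.76, 6.51 and 3.35 CPM. The groups again did not overlap, although counts were few, between 0 and 54 per tumor. The 0 counts in treated replicate 5 allow a level of up to 0.44 CPM, the level that 3 counts would give, a limit that covers counting error only. The log2 fold change of *Dbp* was -2.37 (SE 0.57).

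*Bhlhe41* (ENSMUSG00000030256), also called Dec2, a repressor that acts on Bmal1 targets, had 4.25, 6.22 and 7.60 CPM (lowest, median and highest) with CAT-ABP + alum. The alum tumors had 8.08, 8.42, 11.6, 11.2 and 13.2 CPM. The groups did not overlap, with treated replicate 2 and alum replicate 1 nearest to each other, and the log2 fold change was -0.80 (SE 0.22). *Nr1d2* (ENSMUSG00000021775), the nuclear receptor Rev-erb beta that represses *Arntl*, had 8.95, 13.5 and 18.2 CPM with CAT-ABP + alum and 24.1, 17.3, 24.7, 23.2 and 15.3 CPM with alum. Here 4 of the 6 treated tumors were below every alum tumor, and treated replicates 1 and 4 were above alum replicate 5. For *Nr1d2* the log2 fold change came to -0.67 (SE 0.20), or -0.48 and -1.14 in technical replicates 1 and 2 alone. *Per2* (ENSMUSG00000055866), a core repressor of the clock, had 0.221, 0.763 and 2.94 CPM with CAT-ABP + alum, from 1 to 30 counts per tumor over both groups. With alum it had 2.87, 4.87, 3.76, 3.13 and 1.67 CPM. Treated replicates 1 to 4 were below every alum tumor, and replicates 5 and 6 overlapped with them, for a log2 fold change of -1.55 (SE 0.51).

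*Arntl* (ENSMUSG00000055116), which encodes Bmal1, went the other way. It had 16.9, 20 and 27.9 CPM (lowest, median and highest) with CAT-ABP + alum, and 12.8, 8.42, 13.5, 11.5 and 13.4 CPM with alum. All 6 treated tumors were above all 5 alum tumors, and the log2 fold change was 0.81 (SE 0.18). *Nr1d1*, which encodes Rev-erb alpha, did not pass the filter on low counts. It had 0.49, 0.962 and 1.63 CPM with CAT-ABP + alum and 2.51, 4.87, 2.76, 4.43 and 1.47 CPM with alum, from 2 to 22 counts per tumor. Treated tumors were below every alum tumor in 5 of 6 cases, and replicate 4 was above alum replicate 5.

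**Figure D2:**
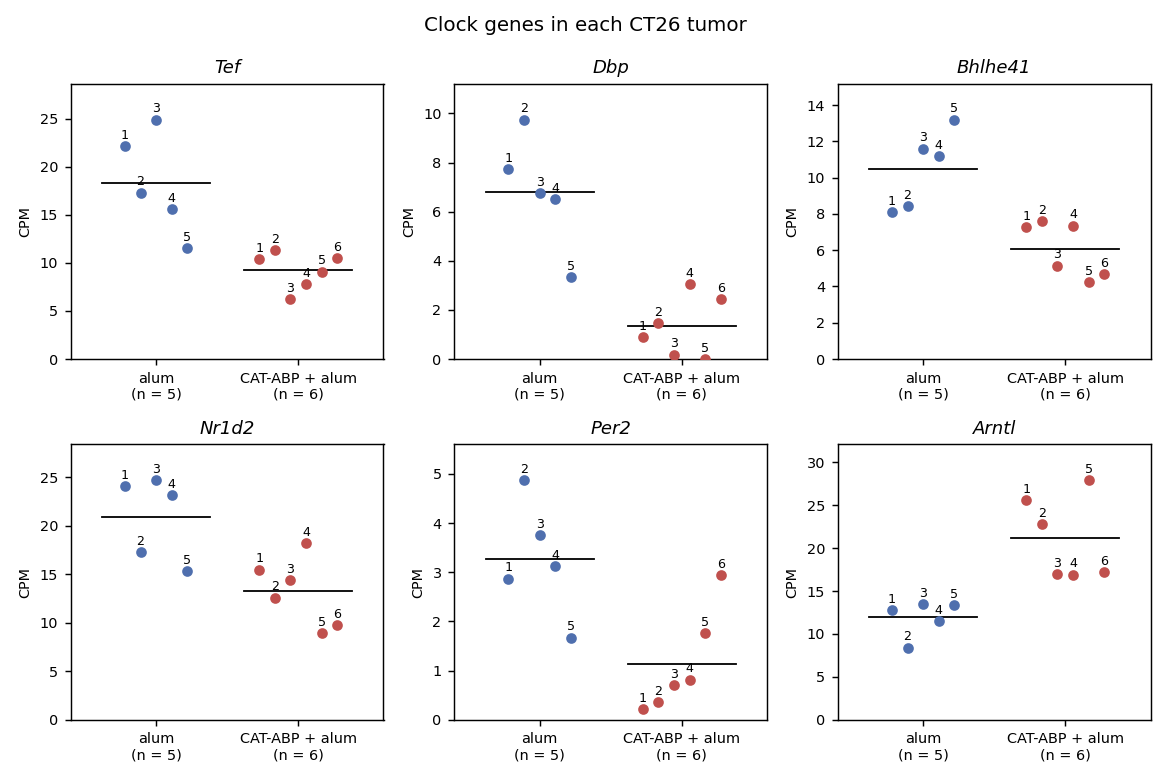
CPM (vertical axis, linear from 0) of 6 clock genes in each CT26 tumor, alum (blue, n = 5) beside CAT-ABP + alum (red, n = 6); numbers are replicates and lines are group means. *Tef*, *Dbp* and *Bhlhe41* are lower in all 6 treated tumors than in any alum tumor and *Arntl* is higher in all 6, while *Nr1d2* and *Per2* overlap.

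The list of clock repressors and PAR bZIP genes has 12 genes, of which 10 were tested. Of these 10, 9 had a fold change below 0 and 5 (50%) were lower at an unadjusted p under 0.05, where 1.53% of all genes were. Without overlap between the groups, 3 of the 10 were lower, where 0.148% of all genes were, and when 1 tumor was left out 28 to 89 of all genes had no overlap in that direction. The other members were not at an unadjusted p under 0.05. The log2 fold changes were -0.69 (SE 0.34) for *Per3*, a period gene, -0.40 (0.24) for *Bhlhe40*, the relative of *Bhlhe41*, and -0.41 (0.26) for *Ciart*, another repressor. *Cry2*, a cryptochrome repressor, and *Per1*, a period gene, were at -0.15 (SE 0.29) and 0.09 (0.47), with signs that changed when 1 tumor was left out: *Cry2* was at 0.05 without alum replicate 1 and *Per1* at -0.08 without alum replicate 2. *Per3* was at -0.32 without alum replicate 3 and *Ciart* at -0.17 without alum replicate 5. In technical replicate 2 alone *Ciart* was at -0.65 and *Bhlhe40* at -0.195, and in technical replicate 1 alone *Cry2* was at -0.40. *Hlf*, another PAR bZIP gene, had at most 4 counts in a tumor and was not tested.

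As a whole the clock repressor list, which was chosen with earlier results of these data known, separated the groups. The mean log2 CPM of its 10 tested genes was 1.98 at the lowest, 2.525 at the median and 2.76 at the highest with CAT-ABP + alum, and 3.17, 3.07, 3.45, 3.32 and 2.91 in the alum tumors. All 6 treated tumors were below all 5 alum tumors, with treated replicate 3 lowest and alum replicate 3 highest. The median log2 fold change was -0.68, where the median of all genes was -0.0038. In the libraries of technical replicate 1 alone, 8 of the 10 genes had enough counts, all below 0, with a median of -0.58. In those of technical replicate 2 alone, 4 of the 10 had (*Tef*, *Nr1d2*, *Ciart* and *Bhlhe40*), all below 0, with a median of -0.70, so this value holds none of *Dbp*, *Bhlhe41* and *Per2*.

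Genes of the opposite phase were divided when both technical replicates were summed. Of the 6 tested genes in the list of Bmal1 and its phase, 3 were below 0 and 3 above, with a median of -0.002, which was -0.19 without alum replicate 5 and 0.20 without alum replicate 2. In technical replicates 1 and 2 alone, 0 of the members with enough counts were below 0 and the medians were 0.105 and 0.29 (no test of the list was made). These medians leave out members that were below 0 in the sum. *Arntl2* had too few counts in both technical replicates, and *Cry1* and *Rora* had too few in technical replicate 2. *Arntl* was the member at an unadjusted p under 0.05 and the one without overlap, both in the higher direction, where 0.896% and 0.0701% of all genes were. *Clock*, the partner of Bmal1, was at a log2 fold change of 0.16 (SE 0.16), *Nfil3*, a repressor of PAR bZIP targets, 0.12 (0.35), and *Rora*, the nuclear receptor that activates *Arntl*, -0.19 (0.43). *Cry1*, a cryptochrome, had -0.12 (0.40) and *Arntl2*, the paralog of *Arntl*, -0.67 (0.36). Single tumors moved these values: *Nfil3* was at -0.10 without treated replicate 2 and 0.51 without alum replicate 2, *Rora* at 0.13 and *Arntl2* at -0.38 without alum replicate 2, *Cry1* at 0.05 without treated replicate 3, and *Clock* at 0.08 without alum replicate 5 and 0.27 without alum replicate 2. In technical replicate 1 alone *Cry1* was at 0.105, *Rora* at 0.04, *Nfil3* at 0.205 and *Clock* at 0.10, and in technical replicate 2 alone *Nfil3* was at 0.025 and *Clock* at 0.29. *Npas2* had too few counts to be tested. Genes for clock protein turnover, such as kinases and ubiquitin ligases, showed 3 of 7 below 0 and a median of 0.02, which was -0.08 without treated replicate 2 and -0.03 in technical replicate 1 alone. Glucocorticoid targets, which follow a daily hormone rhythm, showed 6 of 12 below 0 and a median of 0.004, which was -0.11 without treated replicate 5 and 0.11 without treated replicate 3, and -0.07 in technical replicate 1 alone.

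Promoters are shown for the clock genes because their fold changes went together and because the clock acts through short DNA elements. The sequences cover 250 bases before to 50 after the gene start, from RefSeq on the build GRCm38.p6, and are written from 5′ to 3′ on the strand of the gene. Both strands were searched for the E-box CACGTG, bound by Bmal1 and Clock, the D-box TTATGTAA or TTACGTAA, bound by PAR bZIP factors, and the core of the RORE, TAGGTCA or TGGGTCA, bound by Rev-erb and ROR receptors. An entry existed for 10 of the 12 genes in the clock repressor list, with 12 promoters in all, and not for *Per2* and *Bhlhe40*. The E-box was in 5 of these 12 promoters (41.7%), 2 of them of *Tef*, and in 7.15% of all 32851 promoters. The D-box was in 1 of the 12 (8.33%), that of *Per3* with 2 matches, and in 1.06% of all promoters. The hypoxia list outside glycolysis held the D-box in 3 of 35 promoters (8.57%). Its E-box share was 11.4%, beside 12.5% for MHC class I, 12.1% for glycolysis and 10% for the list of Bmal1 and its phase. The RORE core was in 0 of the 12 and in 6.45% of all promoters. In the list of Bmal1 and its phase, it was in 2 of 10 promoters (20%), those of *Nfil3* and of the second *Arntl* entry. Other lists held the RORE core as well, with 7 of 16 promoters in the MHC class I list (43.8%), 5 of 46 in the type I interferon list (10.9%) and 2 of 17 in the interferon-gamma list (11.8%). A match is a description of the letters, and the promoters of *Dbp* and *Nr1d2* held none of the 3 elements in this window. Capitals mark the E-box in *Tef* and *Bhlhe41*, the D-box in *Per3* and the RORE core in *Arntl*. The promoters lie at chr15:81802423-81802722 (plus strand) and chr15:81811164-81811463 (plus strand) for *Tef*, chr6:145865371-145865670 (minus strand) for *Bhlhe41*, chr4:151044616-151044915 (minus strand) for *Per3* and chr7:113207261-113207560 (plus strand) for *Arntl*.
Tef, first promoter: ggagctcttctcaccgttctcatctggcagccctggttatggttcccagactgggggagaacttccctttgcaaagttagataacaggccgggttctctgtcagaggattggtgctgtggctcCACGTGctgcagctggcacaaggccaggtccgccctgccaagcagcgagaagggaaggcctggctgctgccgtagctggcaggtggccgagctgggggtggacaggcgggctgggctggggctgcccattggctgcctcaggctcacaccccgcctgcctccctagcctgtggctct
Tef, second promoter: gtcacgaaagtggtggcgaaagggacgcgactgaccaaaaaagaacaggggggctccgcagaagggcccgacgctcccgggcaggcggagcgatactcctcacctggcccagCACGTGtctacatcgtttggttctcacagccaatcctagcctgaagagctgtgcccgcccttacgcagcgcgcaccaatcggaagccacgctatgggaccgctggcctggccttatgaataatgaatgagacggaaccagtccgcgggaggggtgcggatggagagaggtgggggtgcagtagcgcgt
Bhlhe41: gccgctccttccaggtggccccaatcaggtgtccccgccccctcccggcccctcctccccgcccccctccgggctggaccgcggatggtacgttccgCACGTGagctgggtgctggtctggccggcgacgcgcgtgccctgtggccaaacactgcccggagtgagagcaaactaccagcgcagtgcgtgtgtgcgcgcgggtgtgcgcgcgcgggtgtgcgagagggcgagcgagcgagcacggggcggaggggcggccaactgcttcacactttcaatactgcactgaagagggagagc
Per3: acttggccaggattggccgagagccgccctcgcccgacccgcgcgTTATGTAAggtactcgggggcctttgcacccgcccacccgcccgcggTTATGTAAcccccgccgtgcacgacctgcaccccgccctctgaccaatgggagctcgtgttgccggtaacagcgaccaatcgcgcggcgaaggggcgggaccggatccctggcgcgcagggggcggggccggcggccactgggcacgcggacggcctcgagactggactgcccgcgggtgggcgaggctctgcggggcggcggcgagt
Arntl, second promoter: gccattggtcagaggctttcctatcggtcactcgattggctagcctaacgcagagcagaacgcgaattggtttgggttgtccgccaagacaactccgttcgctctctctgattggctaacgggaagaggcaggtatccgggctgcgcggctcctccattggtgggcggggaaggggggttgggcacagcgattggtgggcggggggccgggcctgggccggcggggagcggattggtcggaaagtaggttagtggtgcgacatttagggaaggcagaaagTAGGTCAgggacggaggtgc

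For 3 type I interferon genes with small p, 4 or 5 of the 6 treated tumors were below every alum tumor, while for the mean of the whole list 3 were. *Oasl2* (ENSMUSG00000029561), an oligoadenylate synthetase-like antiviral gene, had 41.9, 82.7 and 100 CPM (lowest, median and highest) with CAT-ABP + alum and 116, 133, 146, 127 and 99.4 CPM with alum. Of the treated tumors, 5 were below all alum tumors, and replicate 6 was just above alum replicate 5. The log2 fold change of *Oasl2* was -0.68 (SE 0.19). *Irf7* (ENSMUSG00000025498), a transcription factor that amplifies the interferon response, had 21.7, 40.4 and 49.4 CPM with CAT-ABP + alum and 69.5, 75.7, 61, 44 and 45.2 CPM with alum. Treated replicates 2 and 6 reached the range of alum replicates 4 and 5, and the other 4 treated tumors were below every alum tumor. Its log2 fold change came to -0.66 (SE 0.22). *Ifi44* (ENSMUSG00000028037), an interferon-induced gene of unclear function, had 88.9, 122 and 185 CPM with CAT-ABP + alum and 206, 207, 186, 168 and 144 CPM with alum. All treated tumors but replicate 6 were below every alum tumor, and the log2 fold change was -0.54 (SE 0.18).

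All 50 genes of the type I interferon list were tested, and 47 had a fold change below 0. Of these 50, 10 (20%) were lower at an unadjusted p under 0.05, where 1.53% of all genes were, and 0 were higher, where 0.896% of all genes were. The median log2 fold change was -0.29. Besides those above, the 10 include *Oas1g*, *Oas3*, *Apol9a*, *Apol9b*, *Bst2* and *Ifi203*. *Apol9a* and *Apol9b* are near-identical copies, and *Oas1g* and *Ifi203* belong to families with close relatives, so the reads of each are uncertain. The list mean, in log2 CPM, was 5.32, 5.78 and 6.26 (lowest, median and highest) with CAT-ABP + alum and 6.21, 6.25, 6.26, 6.15 and 5.755 with alum. Treated replicates 1, 3 and 5 were below every alum tumor, replicate 6 was as high as the highest alum tumors, and alum replicate 5 sat apart from the other 4 alum tumors. Within technical replicate 1 alone the median was -0.30, and within technical replicate 2 alone it was -0.31.

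The genes that respond most to interferon-gamma showed a larger median and a wider spread among tumors. *Gbp2* (ENSMUSG00000028270), a guanylate-binding GTPase, had 149, 405 and 703 CPM (lowest, median and highest) with CAT-ABP + alum and 766, 856, 839, 784 and 364 CPM with alum. Every treated tumor was below alum replicates 1 to 4, and replicates 1, 3 and 5 were below alum replicate 5 as well. The log2 fold change of *Gbp2* was -0.79 (SE 0.36). All 24 members of the list of interferon-gamma GTPases and CXCR3 ligands were tested and all 24 were below 0, with a median of -0.58. At an unadjusted p under 0.05, 4 of the 24 (16.7%) were lower, where 1.53% of all genes were: *Gbp2*, *Gbp5* at -1.04 (SE 0.37), *Gbp6* at -1.12 (0.42) and *Ido1*, the tryptophan-degrading enzyme, at -0.95 (0.43). *Gbp6* has close copies in the mouse genome, so its counts are uncertain. The list mean was 4.88, 6.24 and 6.785 log2 CPM with CAT-ABP + alum and 6.88, 7.305, 6.88, 6.91 and 5.79 with alum, so the same 3 treated tumors, replicates 1, 3 and 5, were below every alum tumor. The median depended on single tumors, and was -0.36 without alum replicate 2. Within technical replicates 1 and 2 alone it was -0.56 and -0.62.

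Antigen presentation by MHC class I followed the same tumors. *Tap2* (ENSMUSG00000024339), a subunit of the pump that carries peptides to class I molecules, had 10.4, 19.1 and 30.8 CPM (lowest, median and highest) with CAT-ABP + alum and 36.1, 49.2, 33.6, 26.8 and 22 CPM with alum. Treated replicates 1, 3, 5 and 6 were below every alum tumor, replicate 4 was level with alum replicate 5, and replicate 2 was within the alum range. Its log2 fold change came to -0.81 (SE 0.27). *Psmb9* (ENSMUSG00000096727), a subunit of the immunoproteasome, had 105, 213 and 272 CPM with CAT-ABP + alum and 313, 329, 312, 314 and 255 CPM with alum. Treated replicates 2, 4 and 6 were between alum replicate 5 and the other alum tumors, and replicates 1, 3 and 5 were below all of them, for a log2 fold change of -0.57 (SE 0.22). All 19 tested genes of the MHC class I list were below 0, with a median of -0.40, and 6 (31.6%) were lower at an unadjusted p under 0.05, where 1.53% of all genes were. The other 4 were *Psmb8* and *Psmb10*, also immunoproteasome subunits, *Erap1*, which trims peptides, and *H2-T22*, a non-classical class I gene with near-identical relatives whose counts are uncertain. All 9 tested MHC class II genes were below 0 with a median of -0.38, and 0 were at an unadjusted p under 0.05 in edgeR. *H2-Ab1*, a class II beta chain, had 63.1, 171 and 272 CPM with CAT-ABP + alum and 349, 665, 217, 149 and 81.6 CPM with alum. The groups overlapped widely, and without alum replicate 2 the class II median was -0.11.

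Interferon-response promoters are shown because the genes they belong to were lower together. The interferon element was searched as GAAANNGAA on both strands. It was in 27 of the 46 promoters (58.7%) found for 37 of the 50 genes of the type I list, in 13 of 17 (76.5%) for 15 of the 24 genes of the interferon-gamma list, in 4 of 16 (25%) for 15 MHC class I genes, and in 8.56% of all promoters. Capitals mark the element in *Ifi44* at chr3:151749861-151750160 (minus strand) and in *Gbp5* at chr3:142496684-142496983 (plus strand).
Ifi44: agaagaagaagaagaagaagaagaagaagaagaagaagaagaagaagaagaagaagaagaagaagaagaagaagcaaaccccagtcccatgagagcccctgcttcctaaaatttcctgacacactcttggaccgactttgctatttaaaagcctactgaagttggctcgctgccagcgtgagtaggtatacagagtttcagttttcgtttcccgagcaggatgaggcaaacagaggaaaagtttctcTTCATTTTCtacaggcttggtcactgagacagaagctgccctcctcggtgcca
Gbp5: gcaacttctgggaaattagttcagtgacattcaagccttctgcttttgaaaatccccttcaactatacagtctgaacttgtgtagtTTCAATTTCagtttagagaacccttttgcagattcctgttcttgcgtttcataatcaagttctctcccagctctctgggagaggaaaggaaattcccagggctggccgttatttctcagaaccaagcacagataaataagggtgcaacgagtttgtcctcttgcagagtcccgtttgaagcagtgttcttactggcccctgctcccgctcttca

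Markers of NK and cytotoxic cells were low in the same treated tumors as the interferon genes. The summed level of the 11 markers was 466, 844, 368, 1170, 226 and 851 CPM in treated replicates 1 to 6, and 903, 944, 885, 1150 and 795 CPM in alum replicates 1 to 5. Treated replicates 1, 3 and 5 were below every alum tumor, replicates 2 and 6 were inside the alum range, and replicate 4 was just above it. All 10 tested markers were below 0 with a median log2 fold change of -0.55. At an unadjusted p under 0.05, 1 of the 10 (10%) was lower, where 1.53% of all genes were: *Klrb1c*, which encodes an NK cell receptor, at -0.85 (SE 0.34). No marker of the list was at 0. The most abundant, *Gzma*, which encodes granzyme A, had 74.9, 249 and 520 CPM (lowest, median and highest) with CAT-ABP + alum and 341, 278, 359, 532 and 393 CPM with alum, with treated replicates 1, 3 and 5 below every alum tumor. *Ifng*, the gene of interferon-gamma itself, had 0.44, 4.31 and 12.5 CPM with CAT-ABP + alum and 11.5, 30.6, 6.64, 12.8 and 2.30 CPM with alum, from 3 to 92 counts per tumor. Treated replicates 1, 3 and 5 were again the tumors below every alum tumor. Without treated replicate 5 the median of the list was -0.36. In bulk RNA, fewer cells of a type and less RNA per cell cannot be told apart, and the part of these cells in the interferon result was not tested.

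**Figure D3:**
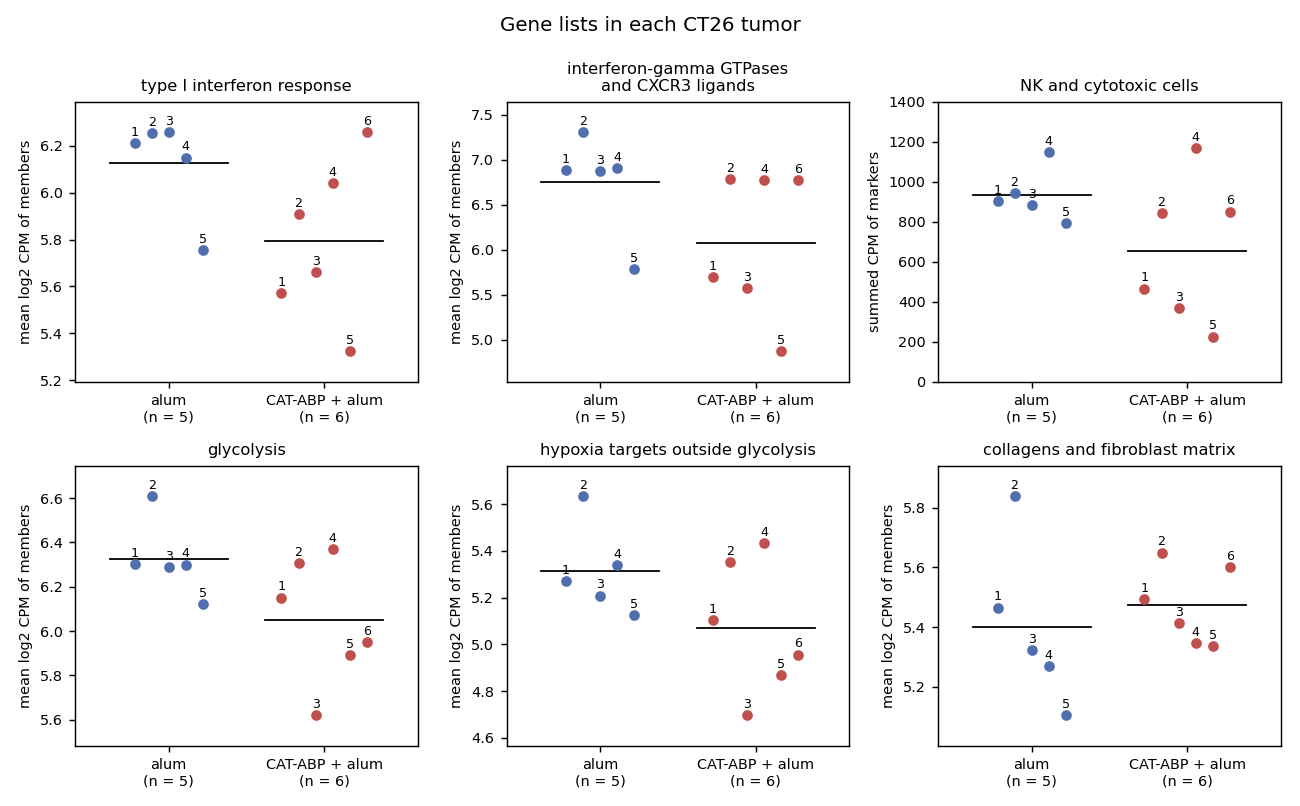
Mean log2 CPM of tested members of 5 gene lists, and summed CPM of the NK and cytotoxic markers (top right), in each CT26 tumor, alum (blue, n = 5) beside CAT-ABP + alum (red, n = 6); numbers are replicates, lines are group means and each vertical axis has its own range. Treated replicates 1, 3 and 5 lie below every alum tumor in both interferon lists and in the cytotoxic markers.

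T cell markers were lower by less. Of 13 tested, 11 were below 0, with a median of -0.20 and 0 at an unadjusted p under 0.05 in edgeR. Their sum was 192, 257, 177, 316, 128 and 310 CPM in treated replicates 1 to 6 and 281, 381, 230, 265 and 169 CPM in alum replicates 1 to 5, *Trbc2*, a T cell receptor constant region, being the most abundant and no marker at 0. Only treated replicate 5 was below every alum tumor, and the median was -0.001 without alum replicate 2 and -0.35 without alum replicate 5, and -0.095 in technical replicate 2 alone.

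Among myeloid markers, 6 of 8 monocyte markers were below 0 with a median of -0.19, which was -0.05 without alum replicate 2. *Ly6c2*, a surface marker of inflammatory monocytes that interferon also induces, had 55.9, 86.4 and 163 CPM (lowest, median and highest) with CAT-ABP + alum and 202, 245, 151, 107 and 69.7 CPM with alum. Treated replicates 3 and 5 were below every alum tumor and the others overlapped, for a log2 fold change of -0.71 (SE 0.31). *Ly6c1*, its near-identical neighbor and the most abundant gene of the endothelial list, had -0.72 (SE 0.22), and reads of the pair cannot be separated with certainty. The endothelial list as a whole was divided, with 7 of 12 tested members above 0 and a median of 0.01. That median ran from -0.12 (without alum replicate 4) to 0.17 (without alum replicate 2) when 1 tumor was left out, and was 0.05 and 0.11 in technical replicates 1 and 2 alone. Monocyte markers summed to between 791 and 1340 CPM with CAT-ABP + alum (median 1020) and to 1220, 1430, 1160, 1180 and 1110 CPM with alum, *Fn1* being the most abundant and none at 0. Treated replicate 6 was inside the alum range, replicate 2 was at its lower end, and the other 4 were below it. Neutrophil markers went the other way, with 8 of 9 tested above 0 and a median of 0.40. At an unadjusted p under 0.05, 1 of the 9 (11.1%) was higher, where 0.896% of all genes were: *Retnlg*, a neutrophil resistin-like gene, at 1.11 (SE 0.40). Mast cell markers were above 0 in 7 of 8 cases with a median of 0.28, which was 0.15 without treated replicate 6 and 0.46 without alum replicate 1, and 0.44 in technical replicate 2 alone. The most abundant of them, *Cma1*, encodes a chymase. Macrophage markers, 8 of 15 below 0, had a median of -0.04, which was 0.16 without alum replicate 4 and 0.05 in technical replicate 2 alone.

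Most glycolysis genes and hypoxia targets were also lower with CAT-ABP + alum. *Aldoa* (ENSMUSG00000030695), the glycolytic aldolase, had 500, 596 and 809 CPM (lowest, median and highest) with CAT-ABP + alum and 780, 1050, 734, 894 and 739 CPM with alum. Only treated replicate 4 reached the alum range. *Pgk1* (ENSMUSG00000062070), phosphoglycerate kinase, had 752, 985 and 1240 CPM with CAT-ABP + alum and 1210, 1570, 1260, 1280 and 1210 CPM with alum, again with treated replicate 4 alone in the alum range. *Car9* (ENSMUSG00000028463), a carbonic anhydrase and HIF target, had 5.86, 8.80 and 13.1 CPM with CAT-ABP + alum and 12.4, 31.5, 11.6, 13 and 12.6 CPM with alum. Treated replicate 4 was above 4 of the alum tumors, the other 5 treated tumors were below all of them, and alum replicate 2 stood far above the rest. The log2 fold changes were -0.43 (SE 0.16) for *Aldoa*, -0.40 (0.16) for *Pgk1* and -0.82 (0.28) for *Car9*, the last of which was -0.48 without alum replicate 2.

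All 22 glycolysis genes were tested, 20 of them below 0 with a median of -0.22, and 3 (13.6%) were lower at an unadjusted p under 0.05, where 1.53% of all genes were: *Aldoa*, *Pgk1* and *Pfkl*, a phosphofructokinase. Outside glycolysis, 22 of 26 tested hypoxia targets were below 0 with a median of -0.26. At an unadjusted p under 0.05, 7 of the 26 (26.9%) were lower and 1 (3.85%) was higher, where 1.53% and 0.896% of all genes were. The 7 are *Car9*, *Ndrg1*, *Ero1a*, *Bnip3*, *Ankrd37*, *P4ha2* and *Fam162a*. The one that was higher is *Angptl4* (ENSMUSG00000002289), a secreted regulator of lipid uptake, with 35.9, 43.7 and 54.4 CPM with CAT-ABP + alum and 38.4, 28.8, 34.6, 38 and 37.5 CPM with alum. All treated tumors but replicate 5 were above every alum tumor, for a log2 fold change of 0.33 (SE 0.14). *Ndrg1* (ENSMUSG00000005125), a stress-responsive HIF target, had 83.5, 118 and 197 CPM with CAT-ABP + alum and 199, 316, 175, 217 and 152 CPM with alum, with treated replicates 2 and 4 inside the alum range and the others below it. Its log2 fold change came to -0.63 (SE 0.24). The treated tumors that were lowest here were not all those that were lowest in interferon genes. In the list mean of hypoxia targets, treated replicates 1, 3, 5 and 6 were below every alum tumor, replicate 3 being the lowest at 4.70 log2 CPM, and in glycolysis replicates 3, 5 and 6 were, with replicate 3 at 5.62.

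Markers of muscle, a tissue rich in glycolytic enzymes, are given beside this result. Their sum was 663, 407, 550, 774, 621 and 902 CPM in treated replicates 1 to 6 and 1440, 226, 856, 490 and 571 CPM in alum replicates 1 to 5, with *Eno3*, the muscle enolase, the most abundant and no marker at 0. Of 14 tested markers 10 were below 0 with a median of -0.26, which ran from -0.61 (without alum replicate 5) to 0.34 (without alum replicate 1) when 1 tumor was left out. Alum replicate 1 was the highest and alum replicate 2 the lowest. *Myh4*, a fast muscle myosin that held rank 17, had 2.31, 5.50 and 10 CPM (lowest, median and highest) with CAT-ABP + alum and 76, 6.64, 29.4, 6.25 and 2.93 CPM with alum, so its log2 fold change of -2.12 (SE 0.64) rested on alum replicates 1 and 3 and was -1.05 without alum replicate 1. The part of muscle in the glycolysis result was not tested. The core of the hypoxia element, ACGTG or GCGTG on either strand, was in 26 of 33 promoters of glycolysis genes (78.8%), in 26 of 35 promoters of the other hypoxia targets (74.3%) and in 43.8% of all promoters. The MHC class I list held it in 13 of 16 promoters (81.2%). It overlaps with the E-box, whose last 5 letters are ACGTG, and all 12 promoters of the clock repressor list held it as well. The promoter of *Pgk1*, at chrX:106186850-106187149 (plus strand), is shown with its 2 matches in capitals.
Pgk1: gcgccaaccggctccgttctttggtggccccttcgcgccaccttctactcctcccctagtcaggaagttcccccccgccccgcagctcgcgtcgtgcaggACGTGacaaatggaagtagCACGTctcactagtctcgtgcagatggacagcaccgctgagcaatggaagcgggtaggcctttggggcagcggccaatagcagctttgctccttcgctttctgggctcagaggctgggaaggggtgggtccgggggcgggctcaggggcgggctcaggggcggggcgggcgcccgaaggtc

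Among stress programs, few genes stood out. *Cat*, the mouse gene for catalase itself, had 16.9, 22.2 and 23.4 CPM (lowest, median and highest) with CAT-ABP + alum and 22.1, 21.7, 21.9, 17.5 and 21.1 CPM with alum. Treated tumors lay on both sides of the alum tumors, and the log2 fold change of 0.002 (SE 0.14) ran from -0.06 without alum replicate 4 to 0.05 without treated replicate 4. Of 24 tested genes for the removal of peroxide, such as peroxiredoxins and glutathione peroxidases, 16 were above 0 with a median of 0.03 (-0.03 without treated replicate 3, -0.002 in technical replicate 1 alone), and 1 (4.17%) was lower at an unadjusted p under 0.05, where 1.53% of all genes were. That gene is *Glrx*, a glutaredoxin, with 65.1, 90.1 and 124 CPM with CAT-ABP + alum and 103, 134, 108, 138 and 113 CPM with alum, where treated replicate 4 alone reached the alum range, and its log2 fold change was -0.37 (SE 0.16). Targets of NRF2, the factor that responds to oxidants, were evenly split, with 14 of 28 below 0 and a median of -0.04, which was -0.08 without alum replicate 5, -0.02 without alum replicate 4 and -0.13 within technical replicate 2 alone. The 2 NRF2 targets at an unadjusted p under 0.05 (7.14% of the 28, where 1.53% of all genes were lower) were both lower. They were *Maff*, a small Maf factor, at -0.47 (SE 0.18) and *Blvrb*, a biliverdin reductase, at -0.27 (0.12). In technical replicate 2 alone *Maff* was at -0.225.

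Protein stress genes were slightly lower. *Ddit3* (ENSMUSG00000025408), the CHOP factor of the integrated stress response, had 12.3, 13.6 and 14.7 CPM (lowest, median and highest) with CAT-ABP + alum and 15.4, 26.6, 17, 21.9 and 18 CPM with alum. The groups did not overlap, treated tumors lay within a narrow range, and the log2 fold change was -0.53 (SE 0.16). *Ddit3* was the member of its list at an unadjusted p under 0.05, 1 of 30 (3.33%, where 1.53% of all genes were lower), and 22 of the 30 were below 0 with a median of -0.15. That median was -0.08 without treated replicate 3. Of 23 tested heat shock and chaperone genes, 17 were below 0 with a median of -0.08 and 0 at an unadjusted p under 0.05 in edgeR. The differences were small but even among tumors. The list mean was 6.57, 6.58 and 6.635 log2 CPM with CAT-ABP + alum and 6.73, 6.71, 6.66, 6.68 and 6.63 with alum, and 5 of the 6 treated tumors were below every alum tumor. Immediate early genes, which respond to growth signals and to handling, were below 0 in 14 of 19 cases with a median of -0.15, which was -0.04 without alum replicate 2 and -0.23 without alum replicate 4, and -0.07 in technical replicate 1 alone. *Fos*, the best known of them, was at -0.53 (SE 0.35), or -0.33 without alum replicate 2 and -0.145 in technical replicate 2 alone. Targets of p53 had a median of 0.006 over 17 genes, which was -0.04 without treated replicate 6 and 0.07 without alum replicate 2, and -0.03 and -0.01 in technical replicates 1 and 2 alone, with *Tnfrsf10b*, a death receptor, higher at 0.50 (SE 0.19).

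Matrix genes showed no common direction. Of 39 tested genes for collagens and fibroblast matrix, 18 were below 0 and 21 above, with a median of 0.05 that turned to -0.05 without alum replicate 5 and was 0.15 without alum replicate 2, and was -0.03 in technical replicate 2 alone. The unadjusted p was under 0.05 for 2 higher (5.13%) and 1 lower (2.56%) of them, where 0.896% and 1.53% of all genes were. *Lum* (ENSMUSG00000036446), which encodes the collagen-binding proteoglycan lumican, had 12.8, 22.9 and 32.1 CPM (lowest, median and highest) with CAT-ABP + alum and 16, 12.4, 11.8, 12 and 16.1 CPM with alum. All treated tumors but replicate 2 were above every alum tumor, for a log2 fold change of 0.73 (SE 0.22), which was 0.43 in technical replicate 2 alone. *Mfap5*, a microfibril protein, had 0.52 (SE 0.20), and *Thbs2*, the matrix protein thrombospondin 2, had -0.31 (0.13). Fibroblast markers, 8 of 11 above 0 with a median of 0.12, summed to between 931 and 1520 CPM with CAT-ABP + alum (median 1170) and to 1230, 1630, 940, 988 and 682 CPM with alum, with *Col3a1* the most abundant and none at 0. The alum tumors spanned the whole range of the treated ones, the median was 0.01 without alum replicate 5 and 0.05 in technical replicate 2 alone, and their part in the matrix result was not tested.

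Matrix proteases and inhibitors were above 0 in 14 of 23 cases with a median of 0.05, which was 0.17 without alum replicate 2 and 0.08 and 0.09 in technical replicates 1 and 2 alone, and 2 (8.7%) were higher at an unadjusted p under 0.05, where 0.896% of all genes were. *Mmp3* (ENSMUSG00000043613), the metalloproteinase stromelysin, had 35.2, 63.2 and 92.5 CPM (lowest, median and highest) with CAT-ABP + alum and 28.2, 16.4, 36.7, 51.6 and 60.5 CPM with alum. Treated replicates 1, 3, 5 and 6 were above every alum tumor, for a log2 fold change of 0.67 (SE 0.29). *Plat* (ENSMUSG00000031538), tissue plasminogen activator, had 13.5, 14 and 17.4 CPM with CAT-ABP + alum and 10.4, 13.3, 11, 12.8 and 9.84 CPM with alum. The groups did not overlap, by a margin smaller than the spread within each, and the log2 fold change was 0.36 (SE 0.15). It was 0.14 in technical replicate 1 alone and 0.78 in technical replicate 2 alone. *Ccl12*, a chemokine for monocytes and the member of its list of 12 at an unadjusted p under 0.05 (8.33%, where 0.896% of all genes were higher), had 1050, 1810 and 2460 CPM with CAT-ABP + alum and 1030, 1120, 1240, 1400 and 1610 CPM with alum. The 4 treated tumors above every alum tumor were replicates 1, 3, 5 and 6, the same as for *Mmp3*. CC chemokines were above 0 in 9 of 12 cases with a median of 0.08, which was 0.01 without treated replicate 6 and 0.22 without alum replicate 4, and 0.15 and 0.01 in technical replicates 1 and 2 alone.

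*Npl* (ENSMUSG00000042684, chromosome 1 from 153503015 to 153550045), the lyase that splits the sialic acid N-acetylneuraminate, led the ranking. It had 21.6, 24.8 and 32.3 CPM (lowest, median and highest) with CAT-ABP + alum and 9.34, 13.3, 12, 14.1 and 12.8 CPM with alum. All 6 treated tumors were above all 5 alum tumors by a wide margin, and the log2 fold change was 1.07 (SE 0.16). The rest of sialic acid metabolism did not follow. Of the 22 tested genes, 13 were below 0 with a median of -0.06 (0.01 without treated replicate 5, -0.04 in technical replicate 2 alone), and *Npl* was the member at an unadjusted p under 0.05 (1 of 22, 4.55%, where 0.896% of all genes were higher). Within technical replicates 1 and 2 alone the log2 fold change of *Npl* was 1.07 and 1.04.

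Oxidative phosphorylation, with most members just above 0, was above 0 in 46 of 52 genes with a median of 0.12, and 0 of the 52 were at an unadjusted p under 0.05 in edgeR. The median lay between 0.04, without treated replicate 3, and 0.25, without alum replicate 5. *Ndufa4*, a subunit of the respiratory chain, was at 0.53 (SE 0.28). Proliferation genes were above 0 in 30 of 38 cases with a median of 0.12, which was 0.05 without alum replicate 2, 0.19 without alum replicate 5 and 0.05 in technical replicate 2 alone. The mitotic kinase gene *Plk1* and the spindle checkpoint gene *Bub1b* were higher at an unadjusted p under 0.05 (2 of 38, 5.26%, where 0.896% of all genes were), at 0.65 (SE 0.28) and 0.33 (0.14), the latter at 0.58 in technical replicate 2 alone. Ubiquitin and proteasome genes had a median of 0.07 over 36 genes, which was 0.01 without treated replicate 3 and 0.17 without alum replicate 5, and 0.04 in technical replicate 2 alone, with the proteasome subunit *Psmd6* higher at an unadjusted p under 0.05 (1 of 36, 2.78%, where 0.896% of all genes were), at 0.31 (SE 0.12). Genes of the inflammasome and of IL-1 signaling had a median of 0.08 over 19 genes, which was -0.10 without alum replicate 5 and 0.15 without treated replicate 5, none at an unadjusted p under 0.05 in edgeR.

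The same treatment was given to 4T1 tumors in Balb/c mice (6 tumors with CAT-ABP + alum and 5 with alum, from 500000 cells), and the difference between the effects was tested as an interaction. The count of genes at an adjusted p up to 0.05 was 0 of 14160 by edgeR (quasi-likelihood test, Benjamini-Hochberg adjustment), where the smallest adjusted p was 1. At an unadjusted p under 0.05 there were 335 genes lower in CT26 than in 4T1 (2.37%) and 174 higher (1.23%), and DESeq2 called 0 genes and had 601 at that limit. Leaving out 1 tumor at a time, edgeR had 428 to 789 genes at that limit, the most without CT26 alum replicate 5. Depth was low in part of the 4T1 arm. Treated replicate 4 of 4T1 held 837403 counts in all, with 208320 in technical library 2. Technical library 2 of 4T1 alum replicate 4 held 440905. Both libraries were under 0.25 of the median library total. Without 4T1 treated replicate 4 there were 502 genes at that limit, beside 509 with all tumors. Within 4T1, 1.35% of 13092 genes were lower and 1.53% higher at an unadjusted p under 0.05, and 50.5% were below 0. The type I interferon list leaned in opposite directions in the models. Its median log2 fold change was -0.29 over 50 genes tested in CT26 and 0.19 over 48 in 4T1, and 15 of 50 members had a smaller fold change in CT26 at an unadjusted p under 0.05. Examples are *Irf7*, with a difference of -1.12 (SE 0.30), *Oasl2*, with -0.81 (0.25), and *Ifi44*, with -0.92 (0.26). For the clock repressors the medians were -0.68 over 10 genes tested in CT26 and -0.18 over 8 in 4T1, and 3 of 11 members were lower in CT26 at an unadjusted p under 0.05, *Tef*, *Nr1d1* and *Ciart*. *Arntl* was above 0 in both models, at 0.81 (SE 0.18) in CT26 and 0.51 in 4T1, with a difference of 0.29 (SE 0.31). The NK and cytotoxic markers had medians of -0.55 over 10 genes tested in CT26 and 0.33 over 6 in 4T1, with 2 of 10 lower in CT26 at that limit. Glycolysis had medians of -0.22 and 0.002, with 3 of 22 lower in CT26. The 5 genes with the smallest p for the difference were *Prl8a1*, a prolactin-family gene, *Csprs*, *Gm41442*, *Cx3cr1*, a chemokine receptor of monocytes and macrophages, and *P2ry12*, a purine receptor. *Cx3cr1* and *P2ry12* had differences of 1.71 (SE 0.43) and 1.89 (0.47), and the predicted gene *Gm41442* and *Csprs*, a member of a repeated family, are uncertain.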

How the data were processed

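The deposited counts are estimated counts per gene and library, made by the authors from 3' digital gene expression libraries, and 39.7% of the values above 0 were not whole numbers. Whether reads from the same original molecule were collapsed is not stated. The 2 technical libraries of each tumor were summed and rounded, so that the tumor was the replicate. Genes with low counts were removed with filterByExpr, counts were scaled with TMM, and groups were compared with the quasi-likelihood test of edgeR 4.0.16 in R 4.3.3. P values were adjusted over all genes tested by the Benjamini-Hochberg method, with a threshold of 0.05. Log2 CPM used a prior count of 2. The difference between CT26 and 4T1 was an interaction term in a model of 4 groups. The other groups of the series, 16 tumors, were left out of these fits.

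Gene symbols and positions follow GENCODE M21 on GRCm38, and all 55536 gene IDs of the file were in it. Named genes followed a rule: *Cat*, the 15 genes with the smallest p in each direction, list members at an unadjusted p under 0.05, in lists with at most 1 of these the 2 with the smallest p, the most abundant marker of each cell type and markers at 0, the 5 smallest p of the interaction, and any clock gene. *Epcam*, *Cdh1* and the interaction values of *Irf7*, *Oasl2*, *Ifi44* and *Arntl* fall outside it and were chosen after their values were seen. Members and gene lists were chosen with earlier results of these data known. Alternatives were DESeq2 1.42.0, RLE scaling, 2 other filters, 1 model over all 7 groups, a block for replicate number, the libraries of either technical replicate (11558 and 9949 genes tested), limma 3.58.1 voom with sample weights, and leaving out each tumor. The analysis code was tested on simulated data.

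Several limits apply. Tumors of the same group varied widely, and the count of genes at the looser limit changed with single tumors. The labels give no hour of harvest or order of handling, so the position of the groups in the day is unknown, which matters for clock genes. There was no untreated group and no sorted cell population. Genes with few counts, such as *Dbp* and *Per2*, carry large counting errors. Limits given for counts of 0 cover counting error only. Standard errors are those of the edgeR fit, from the spread of single genes over tumors.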

Additional observations from a re-analysis of the deposited data

Results flagged for a closer look

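In 10 of 148 groups of values tested, 1 tumor stood far from the others of its group, and chance flags about 1 in 20 groups. Alum replicate 5 was low in 4 of these cases. Its mean log2 CPM was 5.755 for the type I interferon list, with the other alum tumors between 6.15 and 6.257, and 5.789 for the interferon-gamma list, with the others between 6.879 and 7.305. It had 364 CPM of *Gbp2*, with the others between 766 and 856, and 255 CPM of *Psmb9*, with the others between 312 and 329. These 4 values are not separate observations, since *Gbp2* is in the interferon-gamma list and interferon induces *Psmb9*.

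Alum replicate 2, the tumor with the fewest counts, was high in 2 cases, with 31.5 CPM of *Car9* (others 11.6 to 13) and 1570 CPM of *Pgk1* (others 1210 to 1280). Alum replicate 4 was low in *Cat*, at 17.5 CPM (others 21.1 to 22.1). Among tumors given CAT-ABP + alum, replicate 3 had a mean log2 CPM of 2.606 for the list of Bmal1 and its phase (others 3.05 to 3.264). Replicate 6 had 70.8 CPM for the sum of dendritic cell markers (others 43.4 to 51.7), and replicate 2 had 17.4 CPM of *Plat* (others 13.5 to 14.6). The causes were not tested.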

How the results depend on the processing

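The count of genes passing the adjusted threshold was 0 with edgeR under RLE scaling, the stricter filter, the model over 7 groups, the replicate block, each technical replicate alone and each tumor left out. No CT26 library (0 of 22) was under 0.25 of the median library total, so leaving out such libraries left the counts as they were. The count was 1 with DESeq2, with no filter on low counts and with limma voom with sample weights. The gene was *Npl* each time, with log2 fold changes of 1.07, 1.08 and 1.14 and adjusted p of 2.87e-05, 0.0219 and 0.0124 (Benjamini-Hochberg over each test's genes, where edgeR's quasi-likelihood test gave 0.0664). The cause was not tested.

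At an unadjusted p under 0.05, lower and higher genes numbered 749 and 540 with no filter, which tested 29970 genes, 325 and 208 in the model over 7 groups, and 709 and 502 with voom. Without overlap, 18 genes were higher with no filter, 15 were higher in the model over 7 groups, and 12 were lower with a mean of at least 20 counts. Leaving out each tumor gave 126 to 510 lower and 87 to 279 higher genes, and 28 to 89 lower and 13 to 36 higher genes without overlap, fewer tumors making separation easier. For the difference from 4T1 the range was 428 to 789. Of the 311 genes, 299 kept their direction at that limit with DESeq2, 308 with RLE scaling, 261 with voom, 143 in technical replicate 1 alone and 90 in technical replicate 2 alone, where fewer counts were available.

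Replicate numbers were also fitted as a block. The labels do not state that the numbers pair tumors. Correlations between tumors of the same number, after removing group means, were 0, 0.393, -0.25, 0.015 and 0.328. The alum tumor of number 2 was the 1 of 5 that correlated best with the treated tumor of its own number. So few values cannot show whether tumors of the same number shared their handling. With the replicate block 469 genes were lower and 192 higher, *Cat* was at -0.035, and the medians were -0.58 (clock repressors), -0.40 (type I interferon), -0.84 (interferon-gamma) and -0.50 (MHC class I). Treated replicate 6 has no alum tumor of its number, so it adds nothing to the fold changes of the block fit. Leaving that tumor out without a block also gave a type I interferon median of -0.40. For the interferon-gamma list, the lowest median with 1 tumor left out was -0.73. Medians that had been just above 0 turned below it for CC chemokines (-0.01), inflammasome and IL-1 (-0.017), p53 targets (-0.036) and endothelium (-0.048). The median was -0.061 for skeletal muscle and -0.32 for T cells.

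*Cat* changed sign with DESeq2 (-0.008), RLE scaling (-0.005), technical replicates 1 and 2 alone (-0.003 and -0.058) and voom (-0.05), and ran from -0.056 to 0.054 with a tumor left out. In technical replicate 1 alone, *Cry1* was at 0.105 and *Rora* at 0.039. With a tumor left out, *Cry1* ran from -0.33 to 0.049, *Rora* from -0.468 to 0.129, *Nfil3* from -0.095 to 0.512, *Per1* from -0.078 to 0.352 and *Cry2* from -0.264 to 0.054. The median of NRF2 targets was -0.132 in technical replicate 2 alone. The causes were not tested. List medians under no filter, the stricter filter, the model over 7 groups and voom, and the difference with each tumor left out, were alternatives chosen after seeing the data.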
